A study of Bos taurus with 40 samples.

Results

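Skeletal muscle RNA was compared between heifers of low and high residual feed intake (RFI), which is the feed an animal eats beyond what is predicted from its body size and growth. The samples were chosen by the labels heifer and muscle, which gave 10 of the 40 samples of the series, 5 of low RFI (efficient) and 5 of high RFI (inefficient) animals. The series also holds bull muscle and the liver of both sexes, and only bull liver was used here, as a check of the tissue. All heifers were purebred Simmental, female, untreated and about 15 months old when housed, with 14 d to get used to the diet before intake was recorded. They were born by embryo transfer to crossbred recipients, high RFI cows having been mated to sires of high RFI breeding value and low RFI cows to sires of low RFI breeding value. Per the methods of the study, the 5 most extreme heifers of each kind were taken by their own RFI, and the parental line of each is not stated. The tags of heifer muscle and heifer liver differ for most animals. Among 4-digit tags only 2704 (high RFI) and 2632 (low RFI) recur in both tissues. The labels therefore do not show whether the muscle animals are those most extreme heifers. The tissue was a biopsy of M. longissimus thoracis et lumborum, the long muscle of the back, snap frozen after the intake test. The high RFI heifers carried the tags 2628, 2647, 2704, M69 and M73, and the low RFI heifers 2632, 2690, 2724, M62 and M70, each tag being 1 animal and 1 library.

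Skeletal muscle is the largest store of protein in growing cattle, and the upkeep of its contractile proteins, ion gradients and mitochondria uses a large share of an animal's energy. Most muscle proteins are encoded in the nucleus, whereas the mitochondrial genome encodes core subunits of the respiratory chain, the enzymes that move electrons to oxygen and pump protons for ATP synthesis. Polyadenylated RNA from both genomes was counted here.

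Depth was 10706431 (M62) to 30300667 reads (M70), with medians of 24855793 in high and 23020371 in low RFI heifers. The same 5547 genes with an identifier were listed in each sample, the lowest with a mean of 7.37 CPM (reads of a gene relative to all reads counted in the sample) and the median gene with 27.3 CPM. These genes held 96.6 to 98.3% of the CPM. Values were divided by a scaling factor per sample (0.780 for M70 to 1.22 for 2704), computed as a trimmed mean of the log ratios to a reference sample, and the results are called scaled CPM below. The files pair no identifier with a name, and names came from the tables of the study for 5 mitochondrial and 4 nuclear genes. Muscle markers could therefore not be looked up by name. Across 4493 genes listed also for bull liver, the median correlation of a heifer muscle sample with the 10 bull liver samples was 0.345 to 0.444. With the other heifer muscle samples, over all 5547 genes and after scaling, the median was 0.905 to 0.955 for each heifer except 2628. The values for liver were taken without scaling.

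Heifer 2628, labelled high RFI, stood apart from the other animals in its whole profile. Its median correlation with the other samples was 0.773, and its single pairs ran from 0.701 to 0.905. Pairs among the 8 animals other than 2628 and M70 ran from 0.883 to 0.979, so the highest pair of 2628 lay within that range. In its library, 786 genes lay more than 2-fold above and 1433 more than 2-fold below the median of the other animals. The first principal component, which held 64.4% of the variance, gave 2628 a score of 77.6. Low RFI heifers 2724 and 2632 followed at 26.1 and 22.1, and the other animals scored between -3.14 and -27.1, the lowest being M70. High and low RFI animals were therefore found at both ends of this axis, and the most extreme animal was not of the same group as the next pair. The second component held 10.8% of the variance and separated 2647 (28.6, high RFI) from M70 (-21.7, low RFI).

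**Figure D1:**
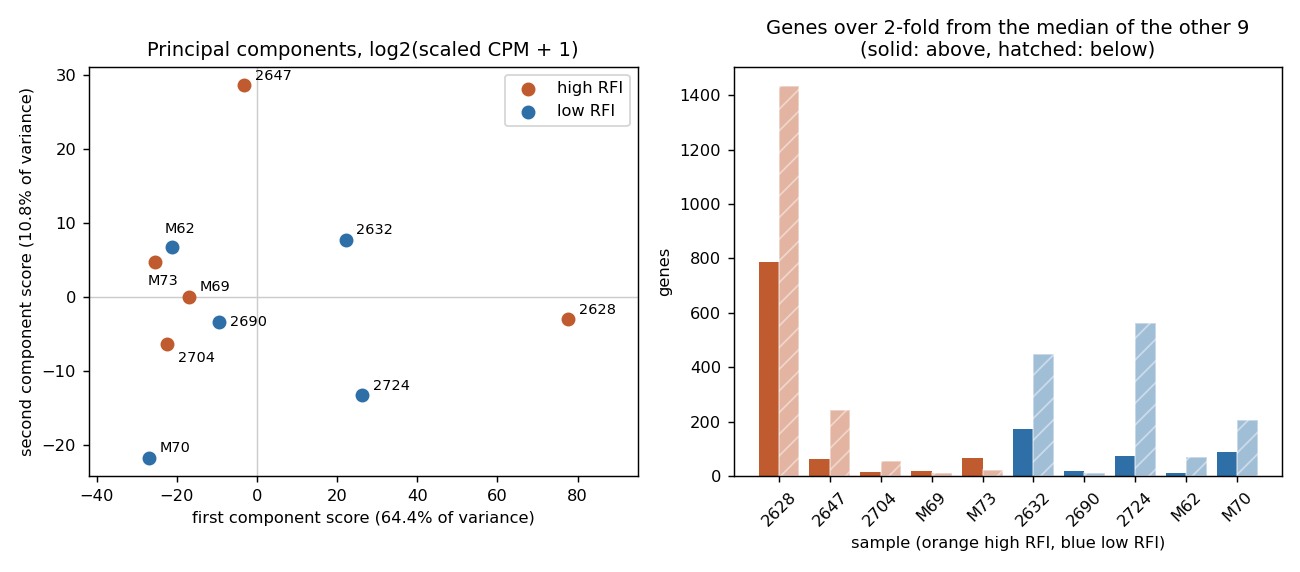
Left, first and second principal component scores of the 10 heifer muscle samples (log2 of scaled CPM plus 1); right, number of genes in each sample more than 2-fold above (solid) or below (hatched) the median of the other animals. Orange marks high RFI and blue low RFI. Heifer 2628 lies alone at a first score of 77.6, with 2724 and 2632 of the other group next to it, and has 2219 genes beyond 2-fold.

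The genes that set 2628 apart were in large part those in which 2724 and 2632 also departed from the remaining animals. Across the 5547 genes, the deviation of 2628 had a correlation of 0.767 with that of 2724 and 0.722 with that of 2632. It was 0.290 for 2690, 0.285 for 2647 and between -0.425 (M73) and -0.102 (M69) for the other 5 animals. These values are across genes, which are not independent replicates, and the samples share the scaling. More than 2-fold departures were seen for 636 genes in 2724 (562 of them below the median) and for 621 genes in 2632 (448 below). The remaining high RFI animals had 31 to 305 such genes. Heifer M70 had 294, but was the highest or lowest of the 10 animals in 1868 genes (33.7%), whereas 2628 was so in 3683 genes (66.4%).

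The main comparison asked which genes differed in muscle between low and high RFI heifers. No gene passed. With limma on log2(scaled CPM + 1), 0 of 5547 genes (0.0%) had an adjusted p under 0.1, and the smallest adjusted p was 0.999. At an unadjusted p under 0.05 there were 91 genes (1.64%), 47 (0.847%) higher and 44 (0.793%) lower in low RFI. Without a scaling factor, 9 genes were higher and 290 lower at that limit, and the median log2 difference of all genes was -0.24 rather than 0.01. A difference of more than 2-fold was seen in 34 genes, 17 in each direction. In 20 genes (0.361%) the values of the groups did not overlap, 10 in each direction (0.18% each). Since the muscle was sampled whole, fewer cells of a type and less RNA per cell cannot be told apart.

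The median SD of a gene between animals was 0.477 on the log2 scale in high RFI and 0.372 in low RFI heifers (n = 5 each). Counting alone gives a median SD of 0.0589 at these depths. High RFI had the larger SD in 3849 genes (69.4%). Without 2628 and M70 the median SD was 0.235 in the 4 high RFI and 0.334 in the 4 low RFI heifers, and high RFI had the larger SD in 1725 genes (31.1%). With all 10 animals the median 95% confidence interval of a log2 difference reached 0.60 to either side, without adjustment for the number of genes tested. It is not the size at which a gene would pass, as none of the 34 genes with a difference of more than 2-fold passed.

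The same comparison was made without M70 and 2628. Again 0 of 5547 genes passed with limma, and the smallest adjusted p was 0.490. At an unadjusted p under 0.05 there were 501 genes (9.03%), with 182 (3.28%) higher and 319 (5.75%) lower in low RFI. The direction was uneven among larger differences, as 2 genes were more than 2-fold higher and 71 more than 2-fold lower in low RFI. The groups of 4 did not overlap in 221 genes (3.98%), 118 (2.13%) of them higher and 103 (1.86%) lower in low RFI. The median interval narrowed to 0.477 to either side. Of the 91 genes found with all animals, 54 were also among the 501, and none had the opposite sign. Every animal of the smaller fit was also in the larger, so this overlap is not independent support.

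The sign of the log2 difference changed between the comparisons with and without these animals in 2128 genes (38.4%). Leaving out 2628 or M70 alone gave fewer genes than leaving out both. Without 2628 alone there were 274 genes at an unadjusted p under 0.05 (4.94%), and without M70 alone 69 (1.24%). Leaving out M62 alone gave 139 (2.51%). The low RFI animals 2724 and 2632, whose deviations resembled those of 2628, stayed in the comparison of 8. In the 501 genes, 2632 lay on the low RFI side of the midpoint between the group means in 98.6%, 2724 in 96.4%, 2690 in 79.2% and M62 in 31.9%. Over all genes these shares were 80.7, 78.9, 54.6 and 31.0%, and as these animals entered the fit, the choice of the 501 genes in part fixes their side. The left-out high RFI heifer 2628 lay on the low RFI side in 444 of the 501 genes (88.6%), where over all genes it did so in 75.5%. The left-out low RFI heifer M70 lay on the low RFI side in 136 (27.1%), and in 38.1% over all genes. Without 2628, 2632 and 2724 together, 115 genes (2.07%) had an unadjusted p under 0.05, and without M70 as well 106 (1.91%). No gene passed in either case with limma.

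**Figure D2:**
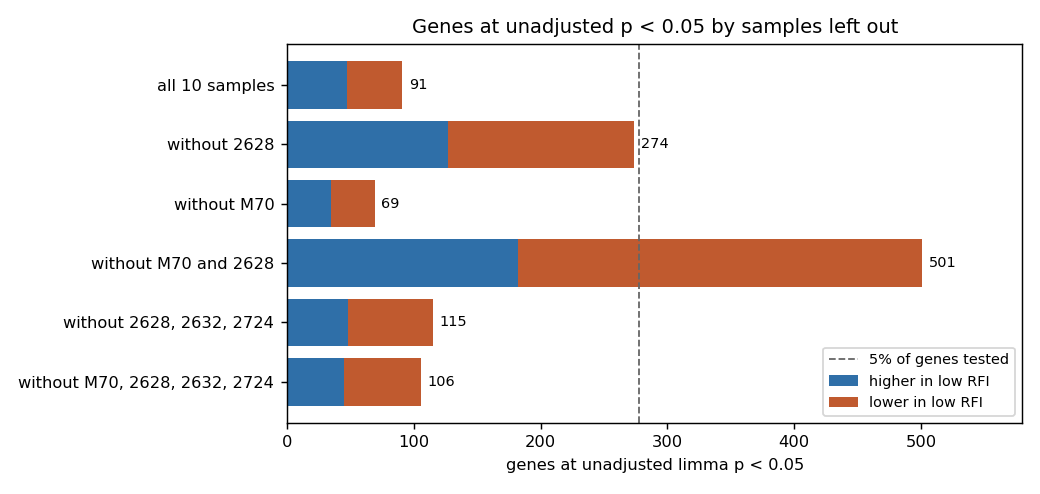
Genes at an unadjusted limma p under 0.05 for low against high RFI, by the animals left out, with genes higher in low RFI in blue and lower in orange; the dashed line marks 5% of the genes tested. The count was 91 with all animals, 501 without M70 and 2628, and 106 when 2632 and 2724 were left out too.

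**Figure D3:**
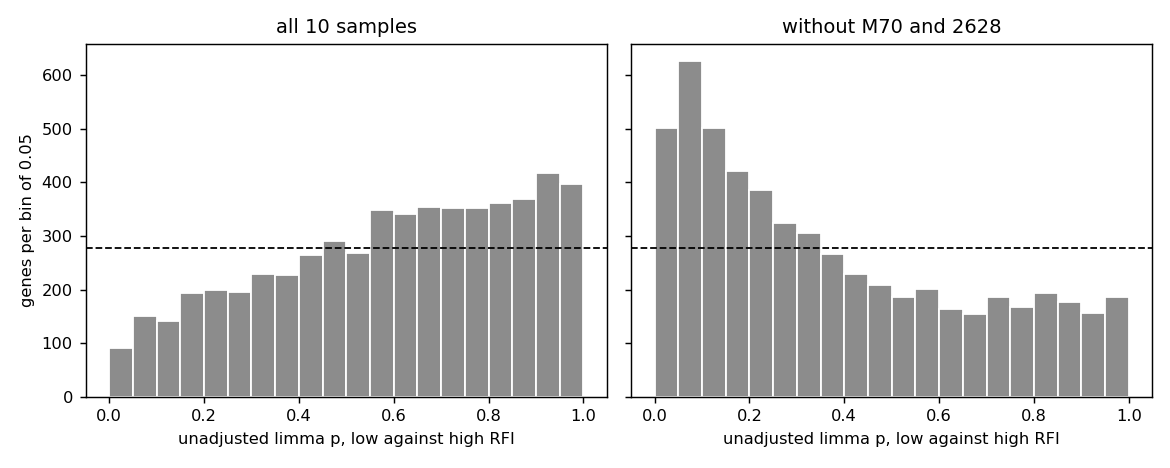
Number of genes per bin of unadjusted limma p, with all 10 animals (left) and without M70 and 2628 (right); the dashed line is the count per bin if p were spread evenly. The lowest bin held 91 genes on the left and 501 on the right.

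A fit that gave each sample a weight, smaller the further it lay from its group, was the exception among the 26 alternatives. The weight was 0.0873 for 2628, 0.364 for 2632, 0.477 for M70 and 0.560 for 2724, and 10.6 for 2690. As M62 had 1.15, the low RFI side of this fit rested mostly on 2690 alone. With these weights 114 of 5547 genes passed in limma (54 higher and 60 lower in low RFI), and 1100 (19.8%) had an unadjusted p under 0.05. A weighted fit on the recovered reads (limma voom) gave 0 passing genes, 565 (10.2%) at an unadjusted p under 0.05 and a smallest adjusted p of 0.263. No gene passed in any fit with equal weights.

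HSPA5 (ENSBTAG00000007662) encodes BiP, the main chaperone of the endoplasmic reticulum, which folds secreted and membrane proteins. Its level was 46.0, 66.1, 71.4, 58.7 and 87.6 CPM in high RFI heifers 2628, 2647, 2704, M69 and M73. In low RFI heifers 2632, 2690, 2724, M62 and M70 it was 43.6, 50.7, 40.7, 53.2 and 40.7 CPM. Of the 5 high RFI animals, 4 lay above every low RFI animal, on this scale and after scaling, and 2628 lay among the low RFI animals as deposited. Means were 66.0 ± 15.4 (SD, n = 5) and 45.8 ± 5.84 CPM (SD, n = 5) in high and low RFI. On the log2 scale of scaled CPM the difference, low minus high RFI, was -0.24 with an SE of 0.173 and a 95% interval from -0.62 to 0.14. This did not pass in limma (adjusted p = 0.999), and a two-sided exact permutation test gave p = 0.0794. Without M70 and 2628 it was -0.35 (unadjusted p = 0.0498, limma adjusted p = 0.490). It was -0.16 within the 4-digit tags (3 against 3) and -0.37 within the short tags (2 against 2).

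MANF (ENSBTAG00000031797), a secreted factor made with BiP when unfolded proteins build up in the endoplasmic reticulum, did not follow HSPA5 in every animal. In high RFI it was 12.3 CPM in 2628, 12.5 in 2647, 11.9 in 2704, 8.33 in M69 and 12.8 in M73. In low RFI it was 12.2 CPM in 2632, 10.1 in 2690, 7.56 in 2724, 8.87 in M62 and 3.76 in M70. The groups overlapped, and M70 was the lowest animal, as deposited more than 2-fold below every high RFI animal. After scaling M70 was at 4.83, less than 2-fold below M69 at 8.02 scaled CPM. The value of M70 rests on 114 reads, and that of M62 on 95 reads. The log2 difference of scaled CPM was -0.23 (SE 0.280, 95% interval -0.84 to 0.38, limma adjusted p = 0.999), with p = 0.429 in the two-sided exact permutation test. Without M70 and 2628 it was -0.0013 with an interval from -0.52 to 0.52.

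LIMS2 (ENSBTAG00000006262) encodes an adaptor of the complex that links integrins to the actin cytoskeleton. It was 83.9 CPM in 2628 and 26.3 to 34.4 CPM in the other high RFI heifers. In low RFI it was 27.4 CPM in 2632, 23.7 in 2690, 28.4 in 2724, 28.6 in M62 and 18.1 in M70. A single animal, 2628, was thus more than 2-fold above all the others, which overlapped. The log2 difference of scaled CPM was -0.36 (SE 0.309, 95% interval -1.03 to 0.32, limma adjusted p = 0.999), with an exact permutation p of 0.381 (two-sided). Without M70 and 2628 it was 0.0032, with an interval from -0.37 to 0.37.

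ACTA2 (ENSBTAG00000014614), the actin of smooth muscle that marks vessel walls in a muscle biopsy, was also highest in 2628. It was 164 CPM in 2628, 86.2 in 2647, 79.6 in 2704, 85.2 in M69 and 137 in M73. In low RFI it was 71.7 CPM in 2632, 64.6 in 2690, 62.8 in 2724, 40.6 in M62 and 73 in M70. As deposited, the lowest high RFI value was above the highest low RFI value, with means of 110 ± 38.0 and 62.5 ± 13.0 CPM (SD, n = 5 each). How many of all genes were so placed as deposited was not counted, and without scaling the median log2 difference of all genes was itself -0.24. After scaling the groups overlapped, as 2632 and M70 came to 89.2 and 93.6 scaled CPM and 2704 to 65.3. The log2 difference of scaled CPM was -0.52 (SE 0.310, 95% interval -1.20 to 0.16, limma adjusted p = 0.999), with p = 0.175 in the two-sided exact permutation test. It was -0.46 without M70 and 2628. These 4 nuclear genes are those among 11 that the study names from bull liver which were listed for heifer muscle. None passed in any setting, and each had a log2 difference below 0 with all 10 animals. With library size only the log2 differences were -0.50 (HSPA5), -0.46 (MANF), -0.61 (LIMS2) and -0.78 (ACTA2), beside the median of -0.24 over all genes.

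**Figure D4:**
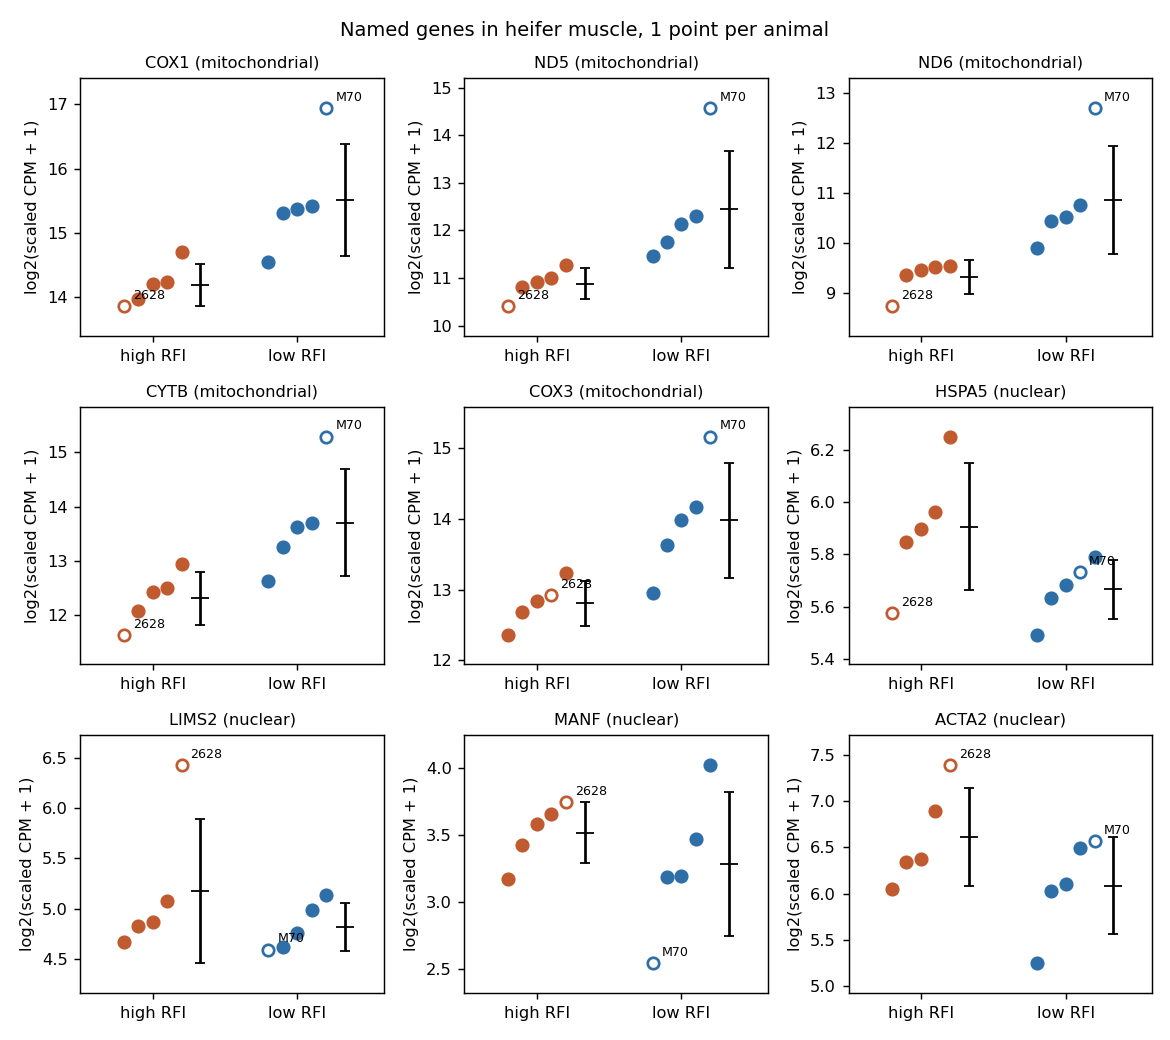
log2(scaled CPM + 1) of the 5 mitochondrial and 4 nuclear genes with a name, 1 point per heifer, with group mean and SD (bars, n = 5); open circles mark 2628 and M70. M70 is the highest animal in each mitochondrial gene, and 2628 the highest in LIMS2 and ACTA2.

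The 5 mitochondrially encoded genes had higher means in low than in high RFI with and without M70 and 2628, but did not pass with equal weights. They encode subunits of respiratory complexes I (ND5, ND6), III (CYTB) and IV (COX1, COX3). On these samples the study called all 5 higher in low RFI, with edgeR on its counts at an adjusted p under 0.1. The study also reported a negative correlation of each with the RFI of the animals, which for CYTB only tended to significance. Its test differs from that used here, and its set of genes was larger. As the study chose them on these samples, their direction here is not independent evidence. Their share of all CPM was 2.72, 5.08, 3.46, 3.56 and 3.99% in 2628, 2647, 2704, M69 and M73. It was 6.11, 6.97, 7.58, 4.60 and 18.2% in 2632, 2690, 2724, M62 and M70. M70 thus had the highest share by far and 2628 the lowest, while M62 lay below 2647. The log2 differences of scaled CPM were 1.17 (COX3) to 1.56 (ND5) with all animals and 0.81 (CYTB) to 0.92 (ND6) without M70 and 2628. In ND5 and ND6 all 5 low RFI animals lay above all high RFI animals, and in the other 3 genes 4 did, M62 being the exception. The limma adjusted p was 0.999 with all animals and 0.490 without these. With sample weights 114 of 5547 genes passed. Among the 5, ND6 (0.0623), COX1 (0.0637), ND5 (0.0637) and COX3 (0.0706) passed there by limma adjusted p, and CYTB did not (0.104). In the other weighted fit of all animals, voom with quality weights, none of the 5 passed (limma adjusted p of 0.4055 to 0.4301). Nuclear copies of mitochondrial sequence can share reads with these genes, and ND6 lies on the other strand next to ND5.

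Among genes without a name, the 2 of smallest p in each direction are given. That their groups lie apart follows in part from this choice on the same animals. ENSBTAG00000011437 had the smallest p. Its scaled CPM was 17.6, 12.7, 13.5, 10.5 and 24.3 in high RFI heifers 2628, 2647, 2704, M69 and M73. In low RFI heifers 2632, 2690, 2724, M62 and M70 it was 5.64, 5.78, 8.59, 8.18 and 4.87. All high RFI animals lay above all low RFI animals, and the log2 difference was -1.10 (SE 0.267), or -0.98 without M70 and 2628. ENSBTAG00000034366 ranged from 16.3 (2628) to 48.3 scaled CPM (M73) in high RFI. In low RFI it was 19.2 in 2632, 15.5 in M70 and 6.48 to 7.51 in the other 3. It overlapped through 2628 and 2632 alone, and its log2 difference was -1.35 (SE 0.358). Without M70 and 2628 it was -1.69, the smallest p of that comparison (unadjusted p = 0.00066, limma adjusted p = 0.490).

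On the other side, ENSBTAG00000043545 was 3.66 to 10.8 scaled CPM in high RFI and 11.4 to 22.5 in low RFI. Its lowest value rests on 53 reads in 2628. As deposited the groups overlapped, since 2724 (10.5 CPM) lay below M73 (12.6 CPM). The log2 difference was 1.16 (SE 0.304), or 0.96 without M70 and 2628. ENSBTAG00000002014 was 44.7 to 54.9 scaled CPM in high RFI and 63.3 to 75.4 in low RFI, with a narrow spread in both groups. Its log2 difference was 0.52 (SE 0.153) with all animals, 0.52 without these and 0.27 with library size only, where the median of all genes was -0.24. As deposited the groups overlapped, since M70 (56.9 CPM) lay below M69. None of these 4 genes passed with equal weights (limma adjusted p = 0.999 with all animals, 0.490 without M70 and 2628). With sample weights, where 114 of 5547 genes passed, all 4 were among them. The limma adjusted p was 0.0039 (ENSBTAG00000034366), 0.0637 (ENSBTAG00000002014 and ENSBTAG00000011437) and 0.0962 (ENSBTAG00000043545). The genes and the weights were both taken from these animals, so this is not independent support. With voom and quality weights none of the 4 passed (limma adjusted p of 0.2635 to 0.4258).

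The tags fell into a 4-digit style (3 heifers of each group) and a short style (2 of each), and what the styles mean is not stated. With the style as a covariate, 105 genes (1.89%) had an unadjusted p under 0.05 and none passed in limma. Within the 4-digit tags alone there were 37 such genes (0.667%), and none passed. Within the short tags alone there were 118 (2.13%), and none passed. Within each style, the named nuclear genes kept the sign they had with all animals, with log2 differences of -0.41 to -0.05 in the 4-digit and -0.72 to -0.28 in the short tags.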

How the data were processed

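RNA of 10 heifer muscle samples was analysed. Per the methods of the study, the authors made TruSeq mRNA libraries, aligned single-end reads with STAR 2.5.1 to UMD3.1 and counted reads on protein-coding Ensembl genes with HTSeq 0.6.1p2. The authors deposited CPM, for only some genes, and how these were selected is not given in the sources used here. The authors tested their counts with edgeR 3.5 at an adjusted p under 0.1.

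In each file 1685 rows without an identifier were left out. Every value was a whole number of reads to within 0.000158 of a read, which gave the depths. Negative binomial tests of these reads had been set as the main test and as alternatives, but were not run. The lowest listed value of a sample was 3 to 52 reads, not 1, and the recovered reads were not accepted as deposited counts. Among the fits, they entered only the weighted voom fits and a filter of at least 10 reads in every sample. They also gave the SD from counting, the chi-square of pairs and the read numbers cited. The main test was instead the fallback for CPM, limma 3.58.1 (R 4.3.3) with a trended variance on log2(scaled CPM + 1). This fallback had been set for the case that reads could not be recovered, although the values here were whole reads. A fold change on this scale understates that of low genes. Scaling factors were trimmed means of M values (30% of fold changes and 5% of expression values trimmed, weighted by depth). A minimum of 1 CPM in 5 samples removed no gene. P-values were adjusted by Benjamini and Hochberg over all 5547 genes, and differences were called at an adjusted p under 0.1. The smallest chi-square per gene between any of 45 pairs of samples was 58.9, so no pair held the same library. Each sample is a separate animal.

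Genes named in the text are those with a name in the tables of the study (16 pairs, 9 listed here) and, as no file or reference pairs other identifiers with names (0 of 5547 matched), the 2 identifiers of smallest p in each direction. The 33 gene lists and the cell type markers drawn up by name could not be applied, and nuclear genes cannot be told from mitochondrial ones beyond those named. The members and lists were chosen with earlier results of these data known. The 4 named nuclear genes were also compared by two-sided exact permutation of the group labels. Alternatives covered scaling, filters, pseudocounts, weights, tag style and animals left out. The pseudocounts, the sample weights, the weighted voom fit without M70 and 2628, the fits without 2632 and 2724, and short tags only were chosen after seeing the data. Other steps used Python 3.11.15, numpy 2.4.6, pandas 2.3.3, scipy 1.17.1 and matplotlib 3.10.9. Only the limma fit was tested on simulated data, with equal scaling factors and independent noise in each gene.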

Additional observations from a re-analysis of the deposited data

Results flagged for a closer look

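In 34 groups of 5 animals (each named gene, and measures of each sample), the gap of the highest or lowest animal to the next was set against the range of its group, with a limit of 0.71. Chance alone passes about 1 in 20 groups, and 7 were past it. The groups reuse the same 10 animals, and 2628 and M70, which account for 6 of the 7, had been singled out beforehand, so this count is a description. Heifer 2628 was past the limit within high RFI in 4 measures. Its first principal component score was 77.58, where the other high RFI animals had -25.47 to -3.138. Its median correlation with the other samples was 0.7732, against 0.9341 to 0.9549. Its log2(scaled CPM + 1) was 6.426 for LIMS2, against 4.67 to 5.081, and 8.741 for ND6, against 9.367 to 9.548. Heifer M70 was past it within low RFI in 2 measures. The share of the 5 mitochondrial genes was 18.21% in M70, against 4.596 to 7.583%, and ND5 was 14.57 on the log2 scale, against 11.47 to 12.29. Heifer M62, the shallowest library, had 6.006 for ENSBTAG00000002014 within low RFI, against 6.192 to 6.256.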

How the results depend on the processing

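With equal weights, 0 genes passed an adjusted p under 0.1 in limma in every alternative run, each animal left out in turn included. Leaving out 1 animal gave 61 (1.10%) to 274 genes (4.94%) at an unadjusted p under 0.05, where all animals gave 91. The count of 91 (1.64%) became 299 (5.39%) with library size only (median log2 difference of all genes -0.24). It was 565 (10.2%) with voom and quality weights, 501 (9.03%) without M70 and 2628, and 758 (13.7%) with both. It was 37 (0.667%) with 4-digit tags only and 1100 (19.8%) with sample weights, where 114 of 5547 genes passed. The cause was not tested. The log2 difference of LIMS2 turned to 0.00316 without M70 and 2628, and that of MANF to 0.03469 with sample weights and 0.03037 with voom weights without M70 and 2628. Of 333 values of the 13 named genes, these 3 changed sign, and 8 passed, all with sample weights (COX1, COX3, ND5, ND6 and the 4 identifiers). HSPA5 stayed between -0.50 and -0.15 and ACTA2 between -0.78 and -0.31. No paired analysis was possible because the groups hold different animals and the labels give them no shared numbers. The planned count tests, and the gene lists, were not run. Limits are the 5 animals a group, the spread between them, depths that differ between libraries, and the lack of gene names.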
